A study of Mus musculus with 6 samples.

Results

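Nr4a1, Nr4a2 and Nr4a3 are the 3 members of the NR4A subfamily of orphan nuclear receptors, and they were taken by symbol as 3 of 37411 gene rows in the deposited count table. RNA had been sequenced from primary hippocampal neurons of CD-1 IGS mice, cultured from pups at postnatal day 0 and used after 16 days in vitro. The treated group received 50 µM forskolin, which stimulates the enzyme adenylyl cyclase and thereby increases cyclic AMP (cAMP), and the control group received an equal volume of its solvent DMSO, both for 30 min. There were 3 DMSO libraries (numbered 1, 2 and 3) and 3 forskolin libraries (4, 5 and 6). Neither group has a genotype or transgene named in its labels. The labels do not say whether the libraries of a group came from separate cultures, so the p-values measure the spread between these libraries, which may be technical, and they name no batch or sex. Such cultures hold glia as well as neurons.

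Nr4a3 stood apart from the other 2 receptors, whose changes did not differ beyond their error. The log2 difference of Nr4a1 from Nr4a2 was -0.28 ± 0.53 (SE). Nr4a3 was set apart from each of them at the smallest exact permutation p possible (0.1, or 0.15 after Benjamini-Hochberg adjustment). Nr4a2 rose 5.76-fold with forskolin (edgeR adjusted p = 0.0297, 3 libraries against 3). Nr4a1 was higher in each forskolin library than in any DMSO library, as 10.3% of tested genes were. Its fitted fold was 4.58, but it did not pass the threshold of 0.05 (edgeR adjusted p = 0.0652). Nr4a3 overlapped between the groups, with a fitted fold of 1.09 (adjusted p = 0.658).

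As background, the NR4A proteins (Nur77, Nurr1 and Nor-1) bind DNA through zinc fingers of the nuclear receptor type, but their ligand pockets are filled by bulky side chains, so that they act largely without a classical hormone ligand. Their output therefore follows how much protein is made, and their genes are immediate early genes, transcribed without new protein synthesis after calcium or cAMP signals reach factors such as CREB. The proteins bind the NBRE element alone, and Nr4a1 and Nr4a2 can also pair with retinoid X receptors. In the hippocampus they are known for a role in long-term memory, and Nr4a2 is needed for midbrain dopamine neurons.

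Total counts ranged from 28342764 to 47548379 per library, of which mitochondrial ribosomal RNA took a share that did not overlap between the groups. That share was 14.0, 23.7 and 19.8% with DMSO (libraries 1, 2, 3), but 29.6, 33.3 and 26.9% with forskolin (4, 5, 6), and its part in the changes described here was not tested. The smallest member count, 156 reads of Nr4a2 in library 1, carries a counting error of 8.01%, so that the spread between libraries sets the precision of most member values. Libraries 4 and 5 stood apart from library 6. The summed level of 12 microglia markers was 23.1 to 34.8 CPM (read counts on a common library size, set with TMM factors) in the DMSO libraries and 25.1 CPM in library 6, against 237 and 401 CPM in libraries 4 and 5, and no marker was at 0 in any library. The 14 neuron markers, all detected in every library, summed to 4750 to 6086 CPM with DMSO and 5687 CPM in library 6, but to 3544 and 3834 CPM in libraries 4 and 5. The 12 astrocyte markers ranged from 8832 to 9373 CPM with DMSO and from 8652 to 9578 CPM with forskolin. The 12 markers of the oligodendrocyte lineage ranged from 836 to 936 and from 652 to 1624 CPM, and the 12 vascular markers from 142 to 220 and from 102 to 152 CPM, with 1 or 2 vascular markers at 0 in each library. Of these lists, 1 marker was called on the 6 libraries, the neuronal Rbfox3 (lower), where 0.172% of all tested genes were called higher and 1.34% lower, whereas without library 6 edgeR called 11 of 12 microglia markers higher and 8 of 14 neuron markers lower, where it called 16.5% of all tested genes higher and 17.1% lower. In that setting 7 of 12 oligodendrocyte lineage markers were called higher and 2 lower, 2 and 3 of 12 astrocyte markers, and 1 and 1 of 9 tested vascular markers. In such bulk RNA, fewer cells of a type and less RNA per cell cannot be told apart. The part of these differences in the member values was not tested, and each member is also given below from library 6 alone.

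In GENCODE M21 (mouse GRCm38, the build named in the submitters' processing notes) all 3 members are protein-coding genes that overlap no other annotated gene. Nr4a1 (ENSMUSG00000023034.7) lies at chr15:101254269-101274795 on the plus strand with 4 transcripts. Nr4a2 (ENSMUSG00000026826.13) lies at chr2:57106830-57124003 on the minus strand with 6 transcripts, and Nr4a3 (ENSMUSG00000028341.9) lies at chr4:48045153-48086447 on the plus strand with 4. The longest transcript of each has 8 exons, with 2553, 3568 and 5720 bases for Nr4a1, Nr4a2 and Nr4a3 and a GC content of 57.0, 47.9 and 48.4%.

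The 250 bases upstream of each RefSeq transcription start (GRCm38.p6) were searched on both strands for the cAMP response element, the site that CREB binds. This was done because all 3 genes are textbook CREB targets, while Nr4a3 overlapped between the groups here. Each of the 3 windows held 4 copies of the half-site TGACG. It is shown in capitals in these sequences, which run 5′ to 3′ towards the gene, and a copy on the other strand appears as CGTCA. The RefSeq start of Nr4a1 lies inside the GENCODE gene, so that its window falls in an intron of a longer transcript and overlaps 0 exonic bases. The window of Nr4a3 is cut where an annotated GENCODE exon begins, which leaves out 152 bases and the half-site nearest the start.
Nr4a1, chr15:101266596-101266845, plus strand: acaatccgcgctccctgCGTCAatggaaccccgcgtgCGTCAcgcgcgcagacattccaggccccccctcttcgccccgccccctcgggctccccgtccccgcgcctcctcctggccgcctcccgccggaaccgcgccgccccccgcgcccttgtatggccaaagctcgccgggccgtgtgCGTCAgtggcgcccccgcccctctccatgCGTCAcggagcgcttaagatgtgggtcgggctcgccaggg
Nr4a2, chr2:57124004-57124253, minus strand: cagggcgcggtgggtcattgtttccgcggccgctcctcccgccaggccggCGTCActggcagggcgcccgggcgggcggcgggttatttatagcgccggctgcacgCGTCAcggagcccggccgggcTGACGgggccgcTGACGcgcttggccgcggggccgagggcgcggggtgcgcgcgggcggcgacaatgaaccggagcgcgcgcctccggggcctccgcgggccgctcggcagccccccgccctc
Nr4a3, chr4:48045055-48045152, plus strand: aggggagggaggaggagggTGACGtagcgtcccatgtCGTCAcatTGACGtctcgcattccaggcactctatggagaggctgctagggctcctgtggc

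In Nr4a1 the half-sites form a distal pair, which begins at -233 and -213 from the start, and a proximal pair, which begins at -69 and -40, and all 4 read CGTCA. In Nr4a2 they begin at -200, -144, -123 and -111, with both orientations present. In Nr4a3 they begin at -231, -213, -205 and -147, so that 3 of the 4 lie close together. At least 4 half-sites were found in 45 of 32851 such windows (0.137%) from 27025 genes, and in 25 of the 6582 windows (0.380%) that are at least as GC-rich as that of Nr4a3 (63.6%). The windows of Nr4a1 and Nr4a2 were 74.4 and 80.0% GC. Of the 43 nuclear receptor genes with a RefSeq window, these 3 had 4 or more half-sites. Of the 14 other early response genes listed here that have a window, 0 did, which does not mean that they hold none. The cut of 4 is the members' own count, so these counts are no independent evidence about the members. At least 1 half-site was found in 17.8% of all windows, at least 2 in 3.90% and at least 3 in 0.688%. None of the 3 member windows held the full site TGACGTCA, which would count as a pair of overlapping half-sites and was present in 1.55% of windows. None held the NBRE, AAAGGTCA, present in 1.34%. A match describes these letters only, and the number of half-sites was the same for the member that rose and for the one whose groups overlapped.

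**Figure D1:**
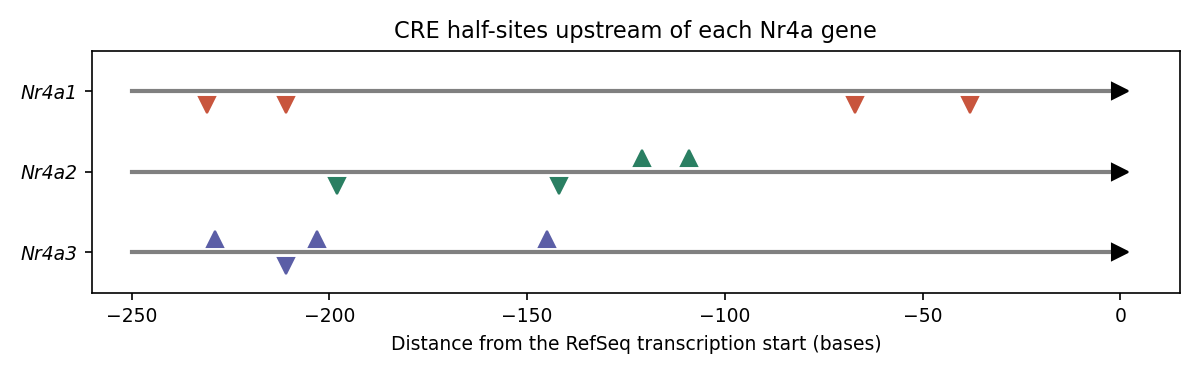
Positions of the CRE half-site (TGACG) in the 250 bases upstream of the RefSeq start of each Nr4a gene, in bases from the start (arrowhead at 0). Triangles pointing up mark copies on the gene's strand and triangles pointing down mark copies on the other strand, and each gene has 4.

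Nr4a2, which encodes Nurr1, had 156, 192 and 254 reads in DMSO libraries 1, 2 and 3, and 1979, 1435 and 714 reads in forskolin libraries 4, 5 and 6. Scaled, these are 4.87, 6.30 and 7.13 CPM with DMSO and 42.0, 42.2 and 21.3 CPM with forskolin. The groups did not overlap, and the lowest forskolin library held 2.99 times the highest DMSO library. The means were 6.10 ± 1.14 and 35.2 ± 12 CPM (SD, n = 3 each), with a log2 fold change of 2.53 ± 0.31 (SE, edgeR adjusted p = 0.0297) and a 95% interval of 1.80 to 3.25. Among 16233 tested genes, 28 (0.172%) were called higher, and Nr4a2 was 45th by p-value and 13th by fold among those 28. It was also called with RLE factors (0.148% of genes called higher), with limma-voom (0.148%), with library size alone (0.191%) and with a minimum mean of 1 CPM (0.179%). With the GC trend removed Nr4a2 kept a log2 fold change of 2.49 but was not called (edgeR adjusted p = 0.166), and 0.00634% of genes were called higher. Nr4a1 had 2.51 in that setting and was not called either (edgeR adjusted p = 0.166). With that trend removed and library 6 left out, Nr4a2 and Nr4a1 were both called higher, as were 16.3% of genes. Without any single one of libraries 1 to 5, edgeR called 0 genes in either direction (1945 to 3216 genes had an unadjusted p under 0.05), and Nr4a2 had log2 fold changes of 2.38 to 2.64 with adjusted p from 0.123 to 0.242. Genes whose 3 forskolin libraries all exceeded all DMSO libraries were far more common, at 10.3% of tested genes.

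Nr4a1, which encodes Nur77, had 1203, 589 and 592 reads in libraries 1, 2 and 3, and 6438, 4703 and 2062 reads in libraries 4, 5 and 6. Scaled, the DMSO libraries held 37.6, 19.3 and 16.6 CPM and the forskolin libraries held 137, 138 and 61.6 CPM. All forskolin libraries lay above all DMSO libraries, as in 10.3% of tested genes. The gap was narrower than for Nr4a2, since the lowest forskolin library held 1.64 times the highest DMSO library. The means were 24.5 ± 11.4 and 112 ± 43.8 CPM (SD, n = 3 each), with a log2 fold change of 2.20 ± 0.43 (SE, edgeR adjusted p = 0.0652) and a 95% interval of 1.18 to 3.21. The DMSO libraries spread more in Nr4a1 than in Nr4a2. Library 1 was the highest of them in Nr4a1 and the lowest in Nr4a2. DESeq2 on the same genes called Nr4a1 higher (adjusted p = 5.50e-06), where it called 4.90% of genes higher. Without a low-count filter edgeR called it too (adjusted p = 0.0368), where 0.173% of genes were called higher. So did limma with library quality weights (adjusted p = 0.00276), where 21.0% were. Without library 6, where edgeR called 16.5% of genes higher, the log2 fold change was 2.47 for Nr4a1 (adjusted p = 0.00478) and 2.77 for Nr4a2 (adjusted p = 0.00176).

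Nr4a3, which encodes Nor-1, had 1654, 1765 and 2455 reads in libraries 1, 2 and 3, and 3113, 2437 and 1877 reads in libraries 4, 5 and 6. Scaled, these are 51.7, 57.9 and 68.9 CPM with DMSO and 66.1, 71.6 and 56.1 CPM with forskolin. The groups overlapped, with forskolin library 6 below DMSO libraries 2 and 3. The means were 59.5 ± 8.71 and 64.6 ± 7.89 CPM (SD, n = 3 each), and the log2 fold change was 0.12 ± 0.15 (SE, edgeR adjusted p = 0.658). The 95% interval ran from -0.24 to 0.47, or from 0.849-fold to 1.39-fold, so that a change as large as the lower bounds of Nr4a1 (2.27-fold) and Nr4a2 (3.48-fold) lies outside it. No tool or setting tried here called Nr4a3. Exact two-sided permutation tests of log2 CPM over the 6 libraries, which cannot go below 0.1 with 3 against 3, gave p = 0.1 for Nr4a1, 0.1 for Nr4a2 and 0.5 for Nr4a3.

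**Figure D2:**
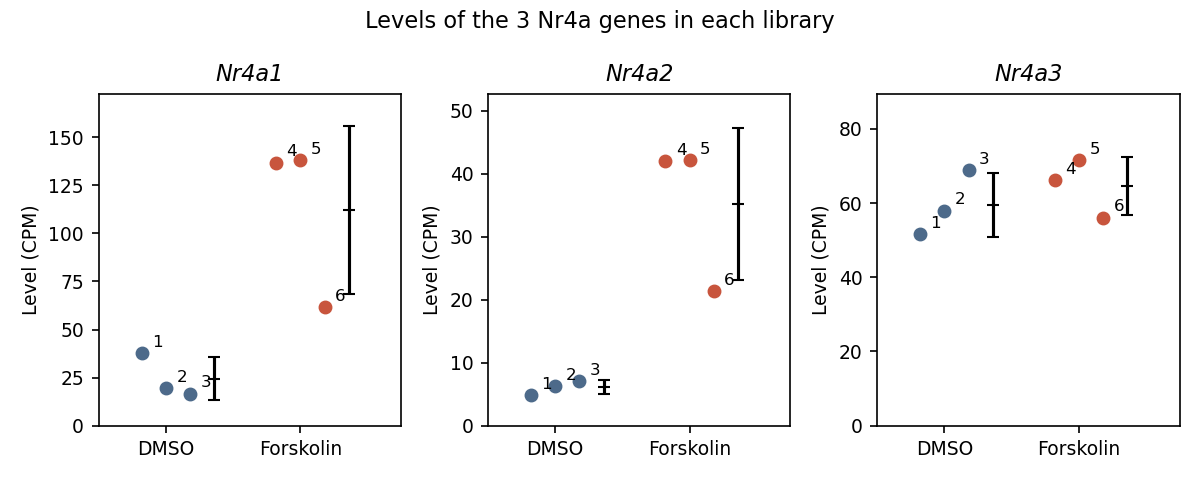
Levels of Nr4a1, Nr4a2 and Nr4a3 in CPM (TMM-scaled, each panel on its own linear axis from 0) in DMSO (blue) and forskolin (red) libraries, numbered as in the text, with mean ± SD (n = 3) in black. Forskolin libraries 4, 5 and 6 lie above libraries 1, 2 and 3 for Nr4a1 and Nr4a2, library 6 is the lowest of the treated libraries for all 3 genes, and the groups of Nr4a3 overlap.

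Within a library the ratio of 2 members does not depend on how libraries are scaled. It can still depend on GC content and on the cells present, and the part of the cells was not tested. With the GC trend removed the 3 differences given below were 2.34, 2.41 and 0.076. The log2 ratio of Nr4a2 to Nr4a3 reads was -3.41, -3.20 and -3.27 in libraries 1, 2 and 3. It was -0.65, -0.76 and -1.39 in libraries 4, 5 and 6. The DMSO libraries were nearly alike in this ratio and all 3 forskolin libraries lay above them, with a difference of 2.36 ± 0.24 (SE, n = 3 each). For Nr4a1 to Nr4a3 the ratio was -0.46, -1.58 and -2.05 with DMSO and 1.05, 0.95 and 0.14 with forskolin, again without overlap, and the difference was 2.08 ± 0.55 (SE). For Nr4a1 to Nr4a2 it was 2.95, 1.62 and 1.22 with DMSO and 1.70, 1.71 and 1.53 with forskolin. Here the groups overlapped, and the difference of -0.28 ± 0.53 (SE) was smaller than its error and turned to 0.23 without library 1. Over these 3 comparisons the exact two-sided permutation p-values were 0.1, 0.1 and 0.9, the smallest possible being 0.1, and 0.15, 0.15 and 0.9 after Benjamini-Hochberg adjustment.

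The make-up of the NR4A transcript pool shifted accordingly. Nr4a3 held 54.9, 69.3 and 74.4% of the reads of the 3 members in libraries 1, 2 and 3, but its share was 27.0, 28.4 and 40.3% in libraries 4, 5 and 6. Nr4a1 held 39.9, 23.1 and 17.9% and then 55.8, 54.8 and 44.3%. Nr4a2 was the smallest part throughout, at 5.18, 7.54 and 7.69% and then 17.2, 16.7 and 15.3%. Nr4a3 thus held the largest share in each DMSO library and Nr4a1 in each forskolin library. Summed over the members, the level was 94.1, 83.5 and 92.6 CPM with DMSO and 245, 252 and 139 CPM with forskolin. These shares count reads and are not corrected for transcript length.

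Levels can be compared between the genes only per length, here as CPM per kb of the longest annotated transcript. With DMSO, Nr4a3 stood at 10.4 ± 1.52 and Nr4a1 at 9.60 ± 4.47 CPM per kb (SD, n = 3 each), and these neighbours did not differ beyond their spread, since Nr4a1 was the higher in library 1 and the lower in libraries 2 and 3. Nr4a2 was at 1.71 ± 0.320 CPM per kb, below both in every DMSO library. With forskolin, Nr4a1 led at 43.9 ± 17.2 CPM per kb and was the highest of the 3 in every library. Nr4a3 followed at 11.3 ± 1.38 and Nr4a2 at 9.86 ± 3.36 CPM per kb. The values of these last 2 overlapped, with Nr4a2 above Nr4a3 in library 4 and below it in libraries 5 and 6.

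Library 6 had the lowest forskolin value of each member. Its microglia and neuron marker sums lay within the DMSO range, and its astrocyte, oligodendrocyte lineage and vascular marker sums (8652, 652 and 102 CPM) lay below it. Their part in its member values was not tested. Relative to the DMSO mean, Nr4a2 was 6.89, 6.91 and 3.50 times as high in libraries 4, 5 and 6, and Nr4a1 was 5.58, 5.64 and 2.51 times as high. Nr4a3 was 1.11, 1.20 and 0.942 times the DMSO mean. Libraries 4 and 5 were nearly alike in Nr4a1 and Nr4a2. When library 6 was the only forskolin library, an alternative added after the data were seen in which it is assumed to vary as the DMSO libraries do, edgeR gave Nr4a2 a log2 fold change of 1.84 ± 0.24 (SE, adjusted p = 0.0475), and Nr4a2 was 1 of 6 genes (0.0354% of 16950) called higher. Nr4a1 then had 1.37 ± 0.42 (adjusted p = 0.232) and Nr4a3 had -0.05 ± 0.18 (adjusted p = 0.911).

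The other nuclear receptors served as a comparison family. Of the 49 genes of the superfamily, 36 passed the filter on low counts, among them the 3 members. Of the 33 others tested, 0 were called in either direction by edgeR on the 6 libraries, where 0.172% of genes were called higher and 1.34% lower. Their median log2 fold change was -0.01, against 0.02 over all tested genes, and their values ranged from -1.52 to 0.73. Nr4a2 and Nr4a1 therefore had the highest fitted changes of the tested superfamily and Nr4a3 lay in its middle. In CPM, 12 of the 33 lay below all DMSO libraries and 1 above, where 16.2 and 10.3% of all tested genes did. Without library 6, edgeR called 4 of the 33 higher and 6 lower, near the 16.5 and 17.1% of all genes. The 13 untested receptors had a mean of at most 0.239 CPM in either group, so that a change of them was not detectable at this depth.

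**Figure D3:**
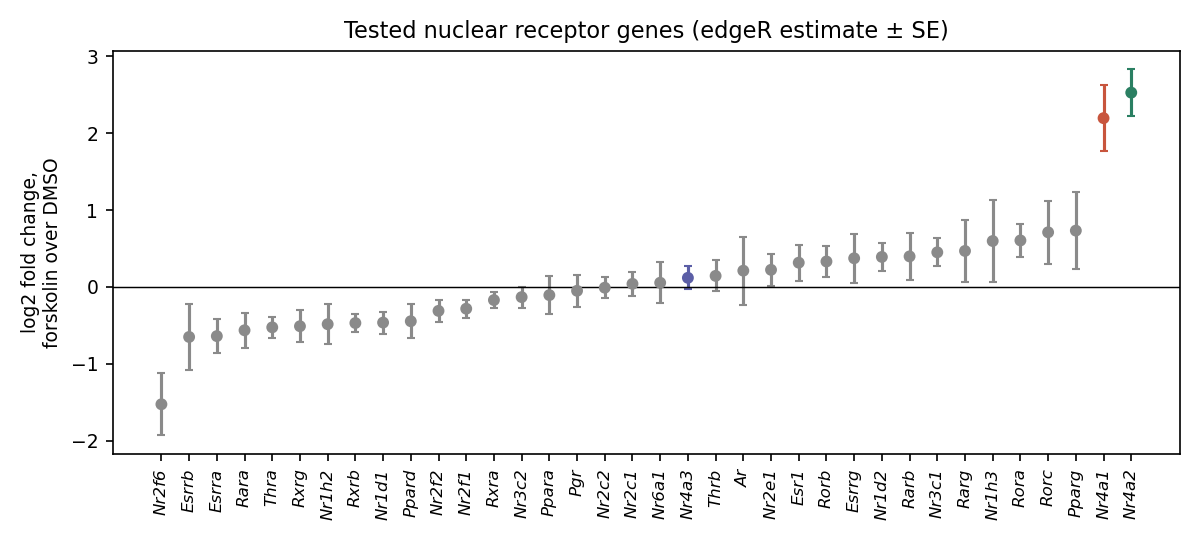
Log2 fold change (edgeR, forskolin over DMSO, all 6 libraries) of the 36 tested nuclear receptor genes in order of size, with bars for ± SE. Nr4a2 (2.53) and Nr4a1 (2.20) stand at the upper end, Nr4a3 (0.12) lies among the other receptors in grey, and those range from -1.52 to 0.73.

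Retinoid X receptors are the dimer partners of Nr4a1 and Nr4a2. Rxra had a mean of 51.7 ± 2.41 CPM with DMSO and 46.0 ± 3.54 CPM with forskolin (SD, n = 3 each; log2 fold change -0.17, edgeR adjusted p = 0.364). Rxrb had 37.6 ± 3.12 and 27.1 ± 1.68 CPM (log2 fold change -0.47, adjusted p = 0.103), and Rxrg had 6.44 ± 1.19 and 4.52 ± 0.275 CPM (log2 fold change -0.51, adjusted p = 0.211). All 3 lay below every DMSO library in every forskolin library, as 16.2% of tested genes did, and none passed the threshold. After correction for GC content the fitted changes were 0.14 for Rxra, 0.14 for Rxrb and -0.33 for Rxrg on the log2 scale, so that the direction turned for Rxra and Rxrb. In the list of 14 partners, corepressors and coactivators, 0 were called in either direction, where 0.172% of all tested genes were called higher and 1.34% lower, so that 0 of 14 does not set the list apart. Its median log2 fold change was -0.01. Without library 6, 1 of the 14 was called higher (Rcor1, adjusted p = 0.0226) and 2 lower (Rxrb, adjusted p = 0.0254, and the coactivator Ncoa1, adjusted p = 0.0282), against 16.5 and 17.1% of all tested genes. On the 6 libraries Rcor1, the CoREST scaffold that Nurr1 can recruit, had a log2 fold change of 0.33 (adjusted p = 0.212).

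Of 16 upstream factors through which cAMP and calcium act on these genes, 0 were called higher and 1 lower, with a median log2 fold change of -0.08, where 0.172% of all tested genes were called higher and 1.34% lower. The gene called lower was Crtc1, a coactivator that enters the nucleus on cAMP and calcium signals and binds CREB. It fell from 53.4 ± 1.68 to 36.3 ± 2.05 CPM (SD, n = 3 each; log2 fold change -0.56, edgeR adjusted p = 0.0482). Creb1 itself overlapped between the groups (log2 fold change 0.45, adjusted p = 0.330). Crem, whose inducible product ICER represses cAMP targets, lay above every DMSO library in each forskolin library (0.68 on the log2 scale, adjusted p = 0.0934), as 10.3% of tested genes did. Without library 6, 1 of the 16 was called higher and 6 lower, against 16.5 and 17.1% of all tested genes. Crtc1 has a GC content of 56.5%, and with each library's trend on GC content removed its log2 fold change was -0.29 (adjusted p = 0.383).

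A list of 19 genes reported elsewhere as NR4A targets was also counted. Of the 16 that were tested, 0 were called in either direction after the 30 min, where 0.172% of all tested genes were called higher and 1.34% lower, and their median log2 fold change was 0.23 against 0.02 over all tested genes. The 2 with the smallest p-values were Fosl2, an AP-1 subunit, and Hsp90b1, an endoplasmic reticulum chaperone. Fosl2 had 35.0 ± 3.43 CPM with DMSO and 58.5 ± 9.94 CPM with forskolin (SD, n = 3 each; log2 fold change 0.74, edgeR adjusted p = 0.0733). Hsp90b1 had 125 ± 13.2 and 195 ± 45.2 CPM (log2 fold change 0.64, adjusted p = 0.139). Hspa5, the chaperone BiP, overlapped between the groups (log2 fold change 0.27, adjusted p = 0.287), as did Bdnf, a secreted neurotrophin (0.12, adjusted p = 0.794). Without library 6, 5 of the 16 were called higher and 1 lower, against 16.5 and 17.1% of all tested genes.

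Set beside 20 early response genes, Nr4a2 was 1 of many that moved. Of the 20, 7 were called higher and 0 lower, where 0.172% of all tested genes were called higher and 1.34% lower, and the median log2 fold change was 1.48 against 0.02 over all tested genes. Without library 6, 16 of the 20 were called higher and 0 lower, against 16.5 and 17.1% of all tested genes. Dusp1, a MAP kinase phosphatase, rose from 27.8 ± 8.75 to 159 ± 41.0 CPM (SD, n = 3 each; log2 fold change 2.52, edgeR adjusted p = 0.0276), close to Nr4a2 in fold. Fos rose by a log2 fold change of 2.46 (adjusted p = 0.0375), Btg2, an antiproliferative factor, by 2.40 (adjusted p = 0.0314), and Maff, a small Maf factor, by 3.71 (adjusted p = 0.0314). This list was written with earlier results of these data known and is no independent evidence of its direction.

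The genes most like each member were found as those with the smallest root mean square difference, over the 6 libraries, of log2 (CPM + 0.5) after subtraction of the DMSO mean, among 13954 other genes with a mean of at least 1 CPM. For Nr4a1 they were Atf3, a stress-induced bZIP factor (difference 0.22), Fos (0.22), Cyr61, a secreted matrix protein (0.27), and Btg2 (0.27). All 4 share with Nr4a1 the high value in DMSO library 1. For Nr4a2 they were the noncoding Gm6225 (0.22), Ptgs2, which encodes cyclooxygenase-2 (0.25), and the loci Gm26586 (0.33) and Gm17024 (0.36). On this log2 scale library 1 stood at 0.06, -0.04, -0.06 and 0.21 in these 4 genes and at -0.28 in Nr4a2, against 0.70 in Nr4a1. The members themselves were farther apart: Nr4a2 was 16th in likeness to Nr4a1 and Nr4a1 was 13th in likeness to Nr4a2 (0.53). For Nr4a3 the nearest were Marcks (0.04), Sgpp1 (0.05), Bach2 (0.05) and Terf1 (0.05), none of them called, and Nr4a1 and Nr4a2 were at 1.55 and 1.62. A small difference is easily reached by genes that change little, and likeness over 6 libraries is a description of these libraries only.

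**Figure D4:**
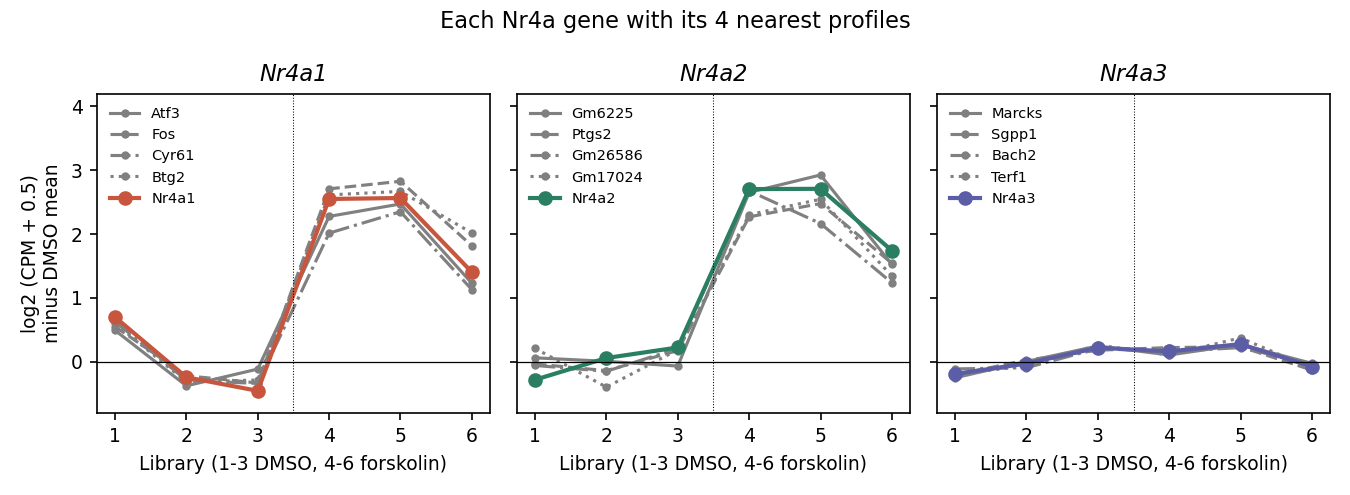
Log2 (CPM + 0.5) minus the DMSO mean in each library (1 to 3 DMSO, 4 to 6 forskolin) for each Nr4a gene (coloured) and the 4 genes with the smallest root mean square difference from it (grey); lines join the values of 1 gene. The Nr4a1 panel has library 1 above libraries 2 and 3 for all 5 genes, Nr4a2 itself is lowest in library 1 (-0.28), and all values of the Nr4a3 panel lie between -0.25 and 0.37.

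Nr4a1 differed between the untreated libraries, and many of the early response genes did so in the same direction. Nr4a1 was 1.53 times the DMSO mean in library 1, and 0.789 and 0.678 times in libraries 2 and 3. Fos had 186, 109 and 101 CPM in these 3 libraries, Arc had 91.3, 43.9 and 39.7 CPM, and Npas4, a neuronal activity-dependent factor, had 105, 25.5 and 24.9 CPM (Arc and Npas4 were chosen after their values were seen). Of the 20 listed early response genes, 17 were highest in library 1 among the DMSO libraries, as 35.8% of all tested genes were. The 3 others were Egr3 (10.1, 10.2 and 11.6 CPM), Sik1 (17.7, 18.5 and 15.4 CPM) and Crem (7.03, 7.12 and 7.46 CPM). Nr4a2 was 0.799 times the DMSO mean in library 1, and 1.03 and 1.17 times in libraries 2 and 3. Nr4a3 followed the same order as Nr4a2, at 0.868, 0.974 and 1.16 times. Among the DMSO libraries, the microglia, vascular, oligodendrocyte lineage and astrocyte marker sums were highest in library 1, and its neuron marker sum and mitochondrial ribosomal RNA share were lowest. Their part in these values was not tested.

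The authors' deposited table of their comparison lists 132 genes and holds Nr4a2 and Nr4a1 as its nuclear receptors. In the authors' deposited table Nr4a2 has a log2 fold change of 2.60 with a standard error of 0.178 and an adjusted p-value of 1.77e-44, and it is 19th of the 132 genes by log2 fold change. In the authors' deposited table Nr4a1 has 2.12 with a standard error of 0.254 and an adjusted p-value of 2.30e-14, and it is 45th by log2 fold change. Nr4a3 is not among the 132 genes of the authors' deposited table, whose smallest log2 fold change is 1.501. DESeq2 run here on the 6 libraries gave 2.54 ± 0.31 for Nr4a2, 2.21 ± 0.41 for Nr4a1 and 0.14 ± 0.17 for Nr4a3 (SE), with adjusted p-values of 2.20e-13, 5.50e-06 and 0.668. The authors' deposited mean normalised counts are 579 for Nr4a2 and 2473 for Nr4a1, and the mean levels here were 20.6 and 68.3 CPM. The ratio between the 2 genes is thus larger in the authors' values, and whether both runs used the same counts was not tested.

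**Figure D5:**
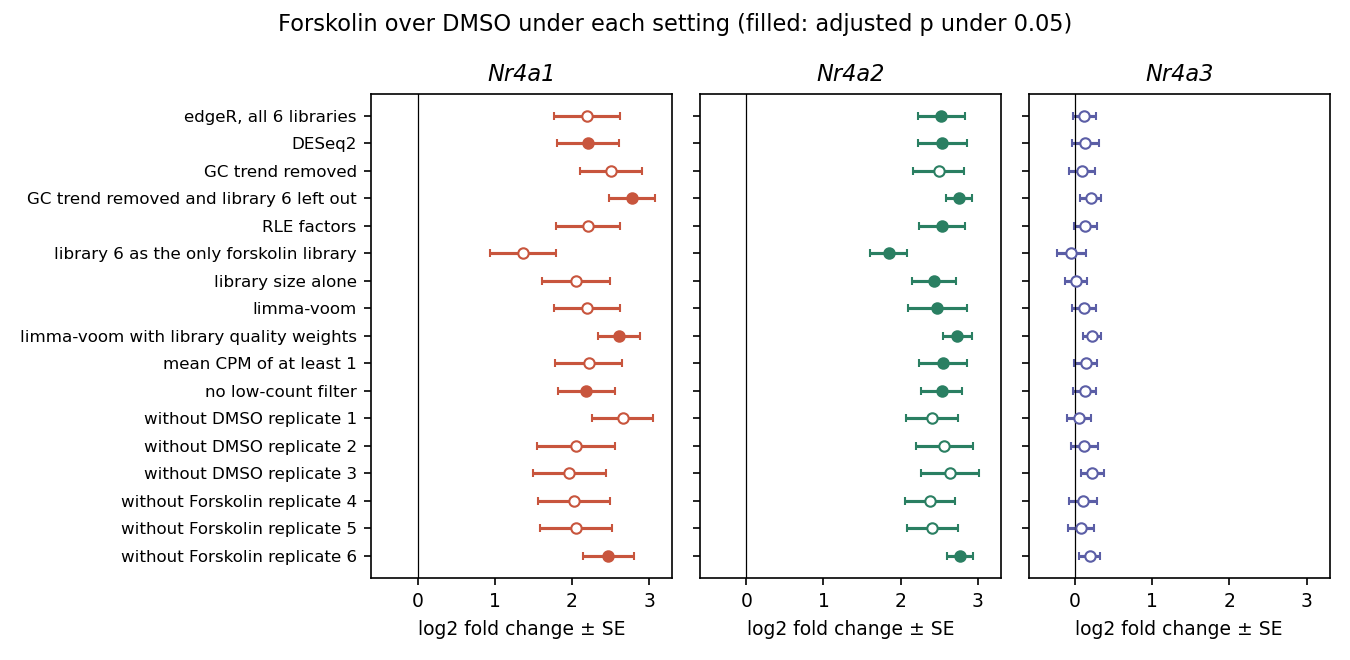
Log2 fold change (forskolin over DMSO, horizontal axis) with ± SE for each member under each test, scaling, filter and choice of libraries; filled points have an adjusted p under 0.05. Nr4a1 stays between 1.37 and 2.78 and Nr4a2 between 1.84 and 2.77 over the 16 alternatives, whereas Nr4a3 stays between -0.05 and 0.23 and has no filled point.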

How the data were processed

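Per the labels' protocols, total RNA was isolated with Trizol/chloroform and sequenced as standard Illumina libraries. The authors deposited whole-number counts per gene symbol for 6 libraries; the submitters' processing notes name Salmon, DESeq and GRCm38 without roles, and the annotation and strand setting are not given in the sources used here. Salmon estimates counts, so reads shared by similar genes may have been divided. A second deposited table by the authors lists, per the file headers, each gene's normalised mean count (signal), log2 fold change with standard error, test statistic (score) and p-values.

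Counts were analysed in R 4.3.3 with edgeR 4.0.16: filterByExpr (minimum count 10, total 15), TMM, glmQLFit and glmQLFTest, Benjamini-Hochberg over 16233 genes, threshold 0.05. Standard errors are the absolute log2 fold change over the square root of F. Alternatives used DESeq2 1.42.0, limma 3.58.1, other scalings and filters, a loess trend on GC content (span 0.5, centred per library), and leaving out libraries. The methods were also run on simulated counts, which had less spread than these libraries and no library that stood apart. That run therefore does not show how the methods perform on these libraries. Of the gene rows, 36174 (96.7%) matched GENCODE M21 by symbol. Permutation tests used SciPy 1.17.1.

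The members and gene lists were chosen with earlier results of these data known. Beside the members, the text names the 4 genes with the nearest profile to each, in each list up to 4 genes past the threshold (otherwise the 2 with the smallest p), Rxra, Rxrb, Rxrg, Creb1, Crtc1, Crem, Fos, Hspa5, Bdnf and Fosl2 whatever their values, and the neighbouring genes; Rcor1, Arc, Npas4, Egr3, Sik1, Rbfox3, Ncoa1 and Arl4d were named after their values were seen. Marker genes are given as sums and counts. Counting errors cover counting only. A gene that this rule would name is not reported here.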

Additional observations from a re-analysis of the deposited data

How the results depend on the processing

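The log2 fold changes of Nr4a1 and Nr4a2 were positive under all 16 alternatives, and adjusted p was under 0.05 in 5 of them for Nr4a1 and in 10 for Nr4a2. Nr4a1 passed with DESeq2 (2.21), with quality weights on the libraries (2.62), with no filter on low counts (2.19) and with the GC trend removed and library 6 left out (2.78). Nr4a2 did not pass with the GC trend removed (2.49, adjusted p = 0.166), a setting in which edgeR called 1 gene higher, Arl4d, and 0 lower (1895 genes at an unadjusted p under 0.05). Nr4a3 turned to -0.047 with library 6 as the only forskolin library. Leaving out 1 library gave 1.97 to 2.65 for Nr4a1, 2.38 to 2.77 for Nr4a2 and 0.05 to 0.23 for Nr4a3. Nr4a2 passed without library 6 and did not pass without any other single library, where adjusted p reached 0.242 and edgeR called 0 genes, with 1945 to 3216 genes at an unadjusted p under 0.05 there. The number of genes called ranged from 0 to 2796 higher and from 0 to 2902 lower when 1 library was left out. It was 794 higher and 971 lower with DESeq2, so that 45.0% of its calls were increases against 11.4% with edgeR. It was 3403 and 3392 with quality weights, 113 lower with RLE factors, 46 higher without a low-count filter, 2690 and 2278 with the GC trend removed and library 6 left out, and 6 and 88 with library 6 alone. Library size alone moved the median of all genes by -0.11, and gave 2.05, 2.43 and 0.02 for Nr4a1, Nr4a2 and Nr4a3. The difference in the ratio of Nr4a1 to Nr4a2 ranged from -0.63 to 0.23 when 1 library was left out and was 0.076 with the GC trend removed. That of Nr4a1 to Nr4a3 ranged from 1.73 to 2.53, and that of Nr4a2 to Nr4a3 from 2.21 to 2.58. The cause of these changes was not tested. No paired analysis was possible because the groups share no replicate number.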

Other observations

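The genes next to the members were also read, apart from the pseudogene next to Nr4a2, which is not analysed here. On either side of Nr4a1 lie Grasp, 21.5 kb away, and Atg101, 9.5 kb away. Grasp had 13.7 ± 0.493 CPM with DMSO and 8.06 ± 2.48 CPM with forskolin (SD, n = 3 each; log2 fold change -0.76, edgeR adjusted p = 0.145), and Atg101 had 28.5 ± 2.08 and 20.8 ± 1.96 CPM (log2 fold change -0.45, adjusted p = 0.129). Both lay below every DMSO library in each forskolin library, as 16.2% of tested genes did, while Nr4a1 lay above. The noncoding BB557941, 3.5 kb from Nr4a2, held 3, 8 and 4 reads with DMSO and 3, 5 and 4 with forskolin, too few to be tested. Stx17, 38.5 kb from Nr4a3, overlapped between the groups (log2 fold change 0.38, adjusted p = 0.205), and Gm12434 on the other side held at most 3 reads in any library.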
